A study of Mus musculus with 10 samples.

Results

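Germ cell pluripotency factors are the transcription factors, chromatin proteins and RNA-binding proteins that primordial germ cells share with pluripotent stem cells. The 10 genes described here, chosen by symbol, were Pou5f1, Nanog, Utf1, Sall4, Tfap2c, Dppa3, Dppa4, Dppa5a, Lin28a and Trim71. Each of the 10 was present among the 24470 gene entries of the count table. The libraries came from C57BL/6 mouse testes explanted at E12.5 and cultured for 48 h, and the mesonephros was dissected away before RNA extraction. From each of 5 embryos, 1 testis received 75 µM of a glycogen phosphorylase inhibitor (GPI) and the other received the vehicle DMSO, giving 5 vehicle and 5 GPI libraries of bulk RNA paired by mouse. The comparison asked how blocking glycogen breakdown altered gene expression in the fetal testis. An explant of the whole testis holds germ cells together with Sertoli, interstitial, endothelial and blood cells.

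Primordial germ cells keep much of the pluripotency network after they colonise the gonad. In the male they then down-regulate it while they leave the cell cycle and commit to the spermatogenic lineage. POU5F1 (OCT4), NANOG and SALL4 act in this network as DNA-binding factors, whereas LIN28A and TRIM71 belong to a post-transcriptional circuit with the let-7 microRNAs.

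Total counts per library ranged from 10203679 to 15590223 in the vehicle group and from 11025409 to 15635322 in the GPI group. The Sertoli cell gene Sox9 had between 881 and 1734 counts with vehicle and between 1335 and 2390 with GPI. Amh, which encodes anti-Müllerian hormone, had 65 to 275 and 42 to 197. Both testis markers were therefore present in each of the 10 libraries. The germ cell markers Ddx4 and Dazl were present in each library as well, with Ddx4 at 149 to 348 counts with vehicle and 14 to 74 with GPI, and Dazl at 333 to 813 and 4 to 59.

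Levels are given as counts per 1000000 counts of the TMM-scaled library total (CPM). The 10 factors together made up 52.9, 106.3, 67.2, 106.4 and 40.4 CPM in the vehicle libraries of mice 1 to 5. In the GPI libraries of the same mice the sum was 7.27, 5.53, 2.62, 2.90 and 3.27 CPM. The highest GPI library lay far below the lowest vehicle library, and the mean was 74.6 ± 30.5 CPM with vehicle and 4.32 ± 2.01 with GPI (SD, n = 5 each). In bulk RNA, fewer germ cells and less RNA per germ cell cannot be told apart.

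Each of the 10 factors was lower with GPI in 5 of 5 mice. For 9 of the 10, every GPI library was below every vehicle library. These 9 were the 7 factors tested in the fit below, and Pou5f1 and Dppa4, which were not tested. Among the tested genes of the whole table, the same held for 9.05%. The exception was Tfap2c. Zero counts occurred 10 times among the 50 GPI values and 0 times among the vehicle values. In the fit over all genes, 7 of the 10 factors passed the low-count filter and each of these 7 was called lower at a false discovery rate of 0.05, beside 11.9% of the 13941 tested genes called lower and 11.1% called higher. The filter asked for about 10 counts (0.864 CPM) in at least 5 libraries. Each of the 7 reached that level in all 5 vehicle libraries, while Sall4, Lin28a and Trim71 reached it in 0 GPI libraries, Nanog and Dppa5a in 1, Dppa3 in 2 and Utf1 in 4. At these counts a gene entered the test through its vehicle level, so the count of 7 is given as a description only. Pou5f1, Tfap2c and Dppa4 were set aside by the filter and are given below as raw counts.

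**Figure D1:**
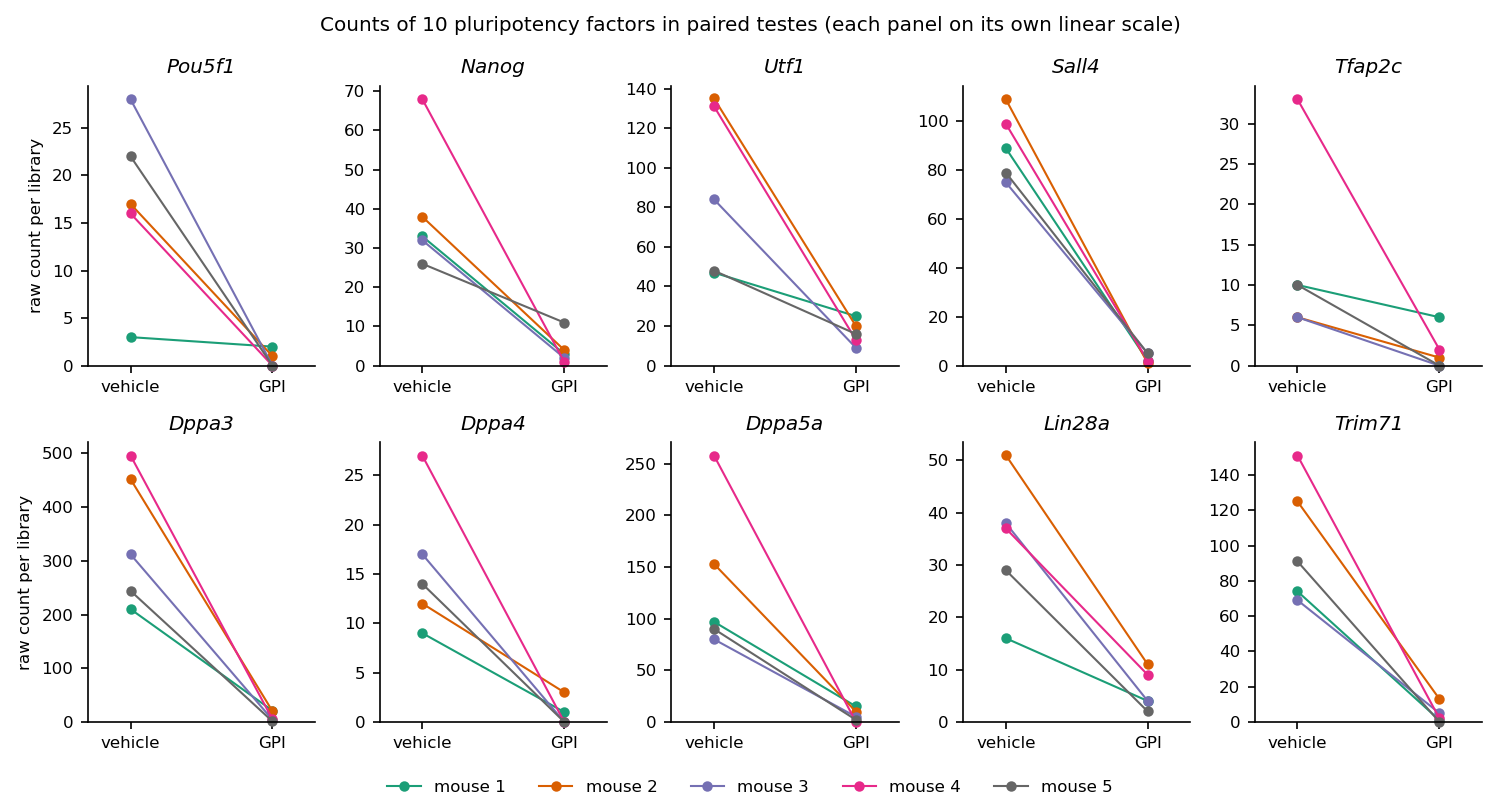
Raw counts of each factor in the vehicle and GPI testes of 5 mice, with 1 line per mouse and a separate linear axis in each panel. Every line falls from vehicle to GPI, and the lines of Pou5f1 (3 to 2 counts) and Tfap2c (10 to 6 counts) in mouse 1 fall least for their vehicle count.

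Pou5f1 encodes OCT4, the POU-domain factor at the core of the pluripotency network. It lies at chr17:35506032-35510777 (mm10, plus strand). The vehicle libraries of mice 1 to 5 held 3, 17, 28, 16 and 22 Pou5f1 counts, and the GPI libraries held 2, 1, 0, 0 and 0. Mouse 1 stood apart with a low vehicle count, and its pair differed by 1 count, whereas in mice 3, 4 and 5 no read was counted after GPI. The groups did not overlap in CPM. Summed over libraries, 3 GPI counts against 86 vehicle counts gave a depth-scaled ratio of 3.42% (95% exact conditional binomial interval 0.692% to 10.4%, counting error only). An exact two-sided sign-flip test of the 5 paired CPM differences gave p = 0.0625 (lower in 5 of 5 mice), the smallest value that 5 pairs allow. Fitted without the filter, where 9.28% of 20287 genes were called lower, the log2 fold change was -4.50 (SE 0.96, adjusted p = 0.000498 from the quasi-likelihood F test of edgeR, Benjamini-Hochberg method). Without mouse 1, Pou5f1 passed the filter and the log2 fold change was -5.91 (adjusted p = 0.000132 from the quasi-likelihood F test of edgeR, Benjamini-Hochberg method). It entered that fit through its vehicle level, and the GPI libraries of mice 2 to 5 held 1, 0, 0 and 0 counts.

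Nanog, a homeodomain factor of the same core, lies at chr6:122707489-122714633 (mm10, plus strand). Its counts were 33, 38, 32, 68 and 26 with vehicle and 3, 4, 2, 1 and 11 with GPI in mice 1 to 5. Mouse 4 had the highest vehicle and the lowest GPI count, and mouse 5 had the lowest vehicle and the highest GPI count, yet the groups did not overlap. The mean was 3.33 ± 1.42 CPM with vehicle and 0.350 ± 0.357 CPM with GPI (SD, n = 5). The log2 fold change was -3.26 (SE 0.59, adjusted p = 0.00109 from the quasi-likelihood F test of edgeR, Benjamini-Hochberg method; lower in 5 of 5 mice). Without mouse 5 it was -4.16.

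RefSeq promoter windows, from 250 bases before to 50 bases after the start site, were found for 5 of the 10 factors (Pou5f1, Nanog, Utf1, Lin28a and Trim71; build GRCm38.p6). These windows were searched on both strands for a POU site (ATGCAAA, reverse TTTGCAT), a SOX site (ACAATG, reverse CATTGT), a GC box (GGGCGG, reverse CCGCCC) and an E-box (CACGTG). The Nanog window held a POU site 75 to 69 bases before the start and, after 1 further base, a SOX site 67 to 62 bases before it. Among 32851 promoter windows, 4.63% held the POU site, 12.6% the SOX site, 35.7% the GC box and 7.15% the E-box. Lin28a held a SOX site 96 to 91 bases before its start. The Nanog and Lin28a windows are shown because they hold these matches, with the POU and SOX letters in capitals. The matches are letters in a window, and binding was not measured here.
Nanog, chr6:122707239-122707538, plus strand: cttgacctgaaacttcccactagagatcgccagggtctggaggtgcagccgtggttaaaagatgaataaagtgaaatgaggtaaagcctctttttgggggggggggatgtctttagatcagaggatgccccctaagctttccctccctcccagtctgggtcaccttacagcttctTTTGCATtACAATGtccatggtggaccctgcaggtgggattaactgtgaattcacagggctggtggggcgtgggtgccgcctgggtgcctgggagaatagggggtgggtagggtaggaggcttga
Lin28a, chr4:134018767-134019066, minus strand: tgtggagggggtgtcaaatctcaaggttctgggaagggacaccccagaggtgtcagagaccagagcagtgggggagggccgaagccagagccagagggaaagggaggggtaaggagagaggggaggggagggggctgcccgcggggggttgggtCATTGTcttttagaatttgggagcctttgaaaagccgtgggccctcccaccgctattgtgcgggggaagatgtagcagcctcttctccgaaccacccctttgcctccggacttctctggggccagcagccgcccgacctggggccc
The GC box occurred once in the Pou5f1 window, 45 to 40 bases before the start, 4 times in the Utf1 window, where 2 of the matches share 1 base, and once each in the Lin28a and Trim71 windows. The POU and SOX letters were not in the Pou5f1, Utf1 and Trim71 windows, and the E-box was in none of the 5.

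Utf1 encodes a chromatin-associated factor of undifferentiated cells and lies at chr7:139943856-139945112 (mm10, plus strand). Vehicle libraries held 47, 135, 84, 131 and 48 counts and GPI libraries 25, 20, 9, 13 and 16. It kept the most counts of the 10 factors after GPI, 83 in total, with a depth-scaled ratio of 18.3% (95% interval 14.3% to 23.2%). The pairs fell into a wide range. In mice 1 and 5, which had the lowest vehicle counts, the GPI level was 53.8% and 47.7% of the vehicle level, and in mice 2, 3 and 4 it was 10.1%, 9.12% and 10.5%. The groups did not overlap. The log2 fold change was -2.39 (SE 0.40, adjusted p = 0.000645 from the quasi-likelihood F test of edgeR, Benjamini-Hochberg method; lower in 5 of 5 mice).

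Sall4, a zinc-finger factor required for germ cell and stem cell maintenance, lies at chr2:168748332-168767201 (mm10, minus strand). It was the steadiest of the factors among vehicle libraries, with 89, 109, 75, 99 and 79 counts, and fell to 2, 1, 5, 2 and 5 counts with GPI. No GPI library came near the vehicle range. The means were 7.65 ± 2.07 and 0.249 ± 0.158 CPM (SD, n = 5), and the log2 fold change was -4.89 (SE 0.43, adjusted p = 2.24e-06 from the quasi-likelihood F test of edgeR, Benjamini-Hochberg method; lower in 5 of 5 mice).

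Tfap2c encodes AP-2 gamma, which acts in primordial germ cell specification, and lies at chr2:172549593-172558622 (mm10, plus strand). Its vehicle counts were 10, 6, 6, 33 and 10 and its GPI counts 6, 1, 0, 2 and 0. Mouse 4 alone held about as many vehicle counts as the other 4 mice together. The groups overlapped, since the GPI library of mouse 1 (0.545 CPM) was level with the vehicle library of mouse 3 (0.544 CPM). The depth-scaled ratio was 13.6% (95% interval 5.95% to 27.4%) and the exact sign-flip p was 0.0625, again the smallest possible, with 5 of 5 mice lower. This ratio leans on single mice, since mouse 1 held 6 of the 9 GPI counts and mouse 4 held 33 of the 65 vehicle counts. By mouse, the GPI level was 60.65% of vehicle in mouse 1, 11.32% in mouse 2, 6.40% in mouse 4 and 0% in mice 3 and 5. In the fit without the filter the log2 fold change was -2.98 (SE 0.89, adjusted p = 0.0144 from the quasi-likelihood F test of edgeR, Benjamini-Hochberg method).

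Dppa3, also called Stella, encodes a protein that protects methylation marks in the early embryo and marks primordial germ cells. It lies at chr6:122626424-122630271 (mm10, plus strand). It had the most counts of the factors in the vehicle libraries, at 210, 452, 312, 496 and 244, and held 21, 20, 4, 5 and 1 counts in the GPI libraries. Mice 1 and 2 kept the most Dppa3 after GPI, at 10.1% and 3.01% of their vehicle level, and mouse 5 kept 0.586%. The groups were separated by a wide margin. The means were 29.2 ± 12.6 and 0.810 ± 0.771 CPM (SD, n = 5) and the log2 fold change was -5.20 (SE 0.36, adjusted p = 3e-07 from the quasi-likelihood F test of edgeR, Benjamini-Hochberg method; lower in 5 of 5 mice). Without mouse 1 it was -5.89. A pair of other annotated transcripts, Dppa3-ps and Gm47576, matched the Dppa3 transcript at 98.2% identity or less, so that its reads could be shared with these copies and its count is uncertain.

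Dppa4, a chromatin-associated nuclear protein that acts with DPPA2, lies at chr16:48283735-48294292 (mm10, plus strand). Counts were 9, 12, 17, 27 and 14 with vehicle and 1, 3, 0, 0 and 0 with GPI. Reads after GPI came only from mice 1 and 2, and the groups did not overlap. Its depth-scaled ratio was 4.97% (95% interval 1.32% to 13.2%), and the exact sign-flip p was 0.0625 with 5 of 5 mice lower. Its log2 fold change in the fit without the filter was -4.29 (SE 0.91, adjusted p = 0.000488 from the quasi-likelihood F test of edgeR, Benjamini-Hochberg method). Without mouse 1 it passed the filter through its vehicle level, and the log2 fold change was -4.49 (adjusted p = 0.00139 in the same test).

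Dppa5a encodes a KH-domain protein of pluripotent cells and lies at chr9:78367052-78368199 (mm10, minus strand). The vehicle libraries held 97, 153, 80, 258 and 90 counts and the GPI libraries 15, 10, 5, 0 and 2. Mouse 4 went from the highest vehicle count to no count at all, while mouse 1 kept the most. The groups did not overlap, and the log2 fold change was -4.43 (SE 0.48, adjusted p = 1.64e-05 from the quasi-likelihood F test of edgeR, Benjamini-Hochberg method; lower in 5 of 5 mice). Without mouse 1 it was -5.16. Transcripts of 8 other annotated genes matched Dppa5a at up to 97.2% identity, so its count is uncertain too. Of these copies, Gm6083 and Pigp were in the count table, with summed counts of 4 and 954 with vehicle and 1 and 949 with GPI.

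LIN28A binds let-7 precursors and blocks their maturation, and Lin28a and Trim71 messages are in turn let-7 targets. The let-7a-5p sequence (RefSeq, chr13:48538239-48538260, GRCm38.p6, minus strand) is shown with its seed, bases 2 to 8, in capitals. The letters that pair with this seed, CTACCTC, are in capitals in the 3′ UTR sites of both genes (GENCODE transcripts, GRCm38), shown because Lin28a and Trim71 were both called lower.
let-7a-5p: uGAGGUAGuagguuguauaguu
Lin28a, chr4:134005189-134005210, minus strand: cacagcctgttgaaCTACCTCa
Lin28a, chr4:134004551-134004572, minus strand: agatcgccacaaacCTACCTCa
Trim71, chr9:114512472-114512493, minus strand: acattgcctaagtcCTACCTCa
Trim71, chr9:114512376-114512397, minus strand: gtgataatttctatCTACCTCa
Of 13045 tested genes with an annotated 3′ UTR, 10.4% held at least 1 such match and 1.36% held 2 or more. Lin28a held 2, Trim71 held 4, of which 2 lay beyond the gene interval of the count table, and Sall4 held 1. The other 7 factors held 0. Lin28b, the paralog of Lin28a, held 4. Let-7 itself was not measured in these libraries, and a match is only a run of letters.

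Lin28a lies at chr4:134003330-134018816 (mm10, minus strand). Its counts were 16, 51, 38, 37 and 29 with vehicle and 4, 11, 4, 9 and 2 with GPI. Mouse 1 had the lowest vehicle count, and mouse 2 the highest count in both groups. The groups did not overlap, and the depth-scaled ratio of 17.2% (95% interval 11.3% to 25.5%) was close to that of Utf1. The log2 fold change was -2.63 (SE 0.41, adjusted p = 0.000361 from the quasi-likelihood F test of edgeR, Benjamini-Hochberg method; lower in 5 of 5 mice).

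Trim71, a ubiquitin ligase and RNA-binding repressor, lies at chr9:114511268-114564369 (mm10, minus strand). Vehicle counts were 74, 125, 69, 151 and 91, and GPI counts were 1, 13, 5, 2 and 0. Mouse 2 held 13 of the 21 counts that remained after GPI. The groups did not overlap, and the log2 fold change was -4.82 (SE 0.43, adjusted p = 2.47e-06 from the quasi-likelihood F test of edgeR, Benjamini-Hochberg method; lower in 5 of 5 mice). Without mouse 2 it was -5.43.

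Levels can be compared between genes only per transcript length. In the vehicle libraries Dppa3 stood highest at 35.1 ± 15.2 CPM per kb, followed by Dppa5a at 18.5 ± 10.2 and Utf1 at 6.27 ± 3.45 (SD, n = 5). Each of these 3 exceeded the next gene in 5 of 5 libraries. Sall4 (1.51 ± 0.407) and Nanog (1.51 ± 0.644) had level means, although Sall4 was the higher in 4 of 5 libraries. Pou5f1 (1.04 ± 0.597), Trim71 (0.918 ± 0.353), Dppa4 (0.887 ± 0.383) and Lin28a (0.834 ± 0.399) did not differ beyond their spread. Tfap2c had the lowest mean, 0.356 ± 0.304, and was below Lin28a in 4 of 5 libraries. Lengths are of the longest GENCODE transcript, which for Trim71 reaches past the counted interval, so its level per kb is understated.

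**Figure D2:**
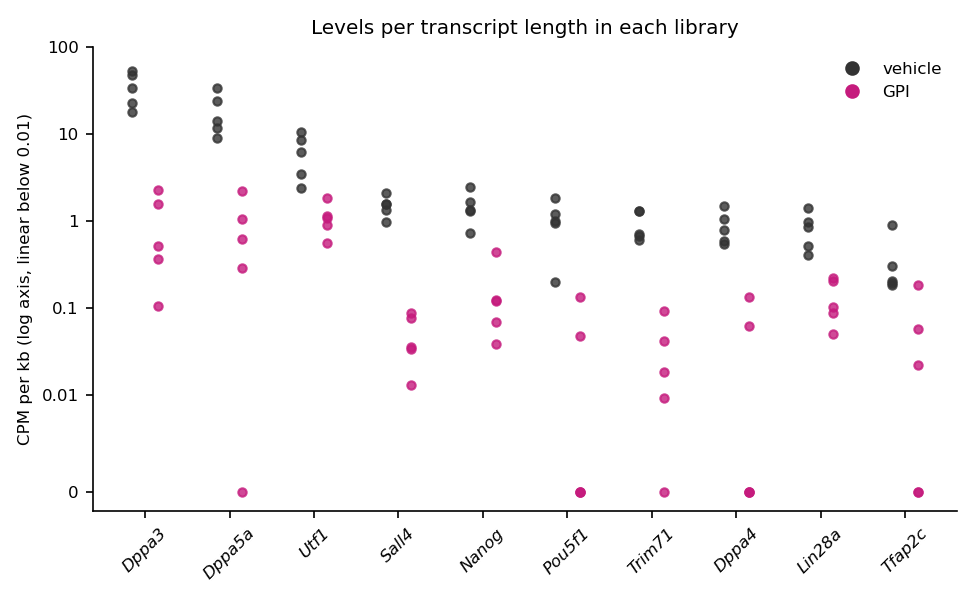
CPM per kb of each factor in each vehicle (grey) and GPI (magenta) library, in order of the vehicle mean, on a log axis that is linear below 0.01. Vehicle points lie above GPI points for every factor except Tfap2c, and points at 0 are libraries with no count.

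Some testes were high or low for many of the factors. Among vehicle testes, mouse 4 had the highest CPM for 5 of the 10 factors and mouse 2 for 4, while mouse 5 was lowest for 6 and mouse 1 for 3. Among GPI testes, mouse 1 was highest for 5 factors, and mice 3, 4 and 5 had no count for 3, 3 and 4 of them.

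**Figure D3:**
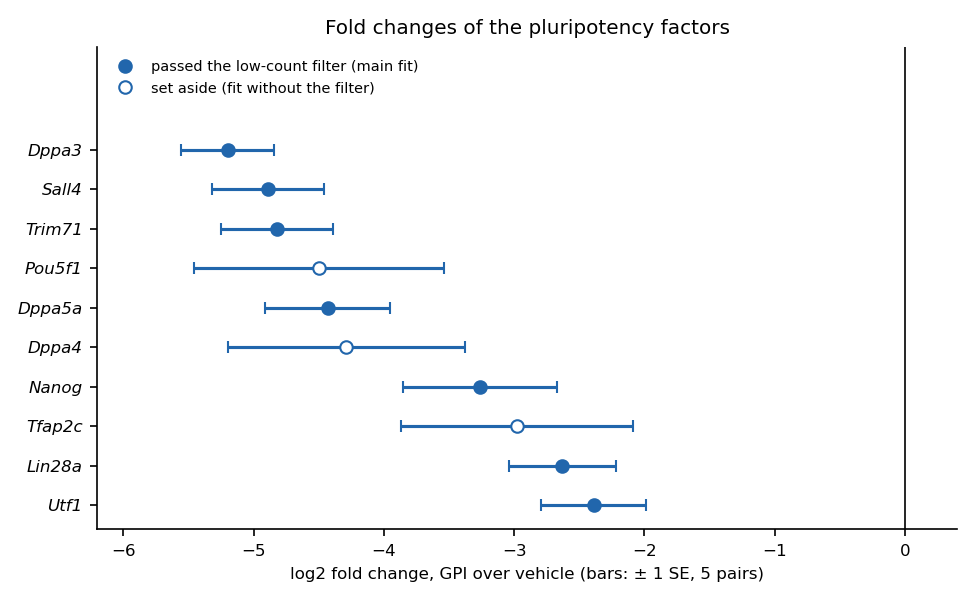
Log2 fold change of GPI over vehicle for each factor, with bars of 1 SE from 5 pairs. Filled points are the 7 factors of the main fit and open points the 3 set aside by the filter, fitted without it. Values run from -5.20 for Dppa3 to -2.39 for Utf1.

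Of the germ cell markers outside the 10 factors, 20 were in the table and 14 were tested. Of these, 11 were called lower, 1 higher and 2 were not called (11.9% lower and 11.1% higher over all tested genes), with a median log2 fold change of -2.88 beside 0.019 over all tested genes. With at least 10 counts required in every library, 5 remained tested and 3 were called lower. Dazl, which encodes an RNA-binding protein of germ cells, fell by 4.62 on the log2 scale (SE 0.34), Ddx4, the germ cell RNA helicase, by 2.72 (SE 0.45). Mael, a piRNA pathway gene, fell by 5.17 (SE 0.66). Sohlh2 and Stk31 fell by 5.14 and 5.34. The gene called higher was Taf4b (log2 fold change 0.83), and Sycp3 and Dnd1, at -0.45 and -0.50, were not called. These 3, and Rnf17 at -0.84, were named after their values were seen.

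The summed level of the 20 markers was 117.8, 210.9, 141.6, 174.9 and 91.8 CPM in the vehicle libraries of mice 1 to 5 and 54.1, 58.0, 46.7, 38.0 and 47.4 CPM in the GPI libraries. Relative to this sum, the 10 factors together were 49.5% ± 6.82 with vehicle and 8.63% ± 3.04 with GPI (SD, n = 5), lower in 5 of 5 mice. Relative to Ddx4 and Dazl alone, they were 115% ± 14.7 and 109% ± 55.4, lower in 3 of 5 mice. So the outcome turned on the reference. Sycp3, Taf4b and Rnf17 made up 27.9% of the 20-marker sum with vehicle and 76.8% with GPI. Dazl, the marker with the most counts with vehicle, made up 30.7% and 3.88%. Against Ddx4 and Dazl, Dppa3 was lower in 5 of 5 mice (44.6% ± 5.14 with vehicle, 17.4% ± 9.25 with GPI). Utf1 was higher in 5 of 5 mice by the same measure (11.1% ± 1.81 and 33.9% ± 16.1), although it was lower in 4 of 5 mice against the 20-marker sum. Lin28a was 4.54% ± 1.35 and 15.2% ± 13.9, and Nanog 5.20% ± 1.17 and 7.15% ± 4.66. These GPI ratios rest on few counts, with 14 Ddx4 and 4 Dazl counts in mouse 3.

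**Figure D4:**
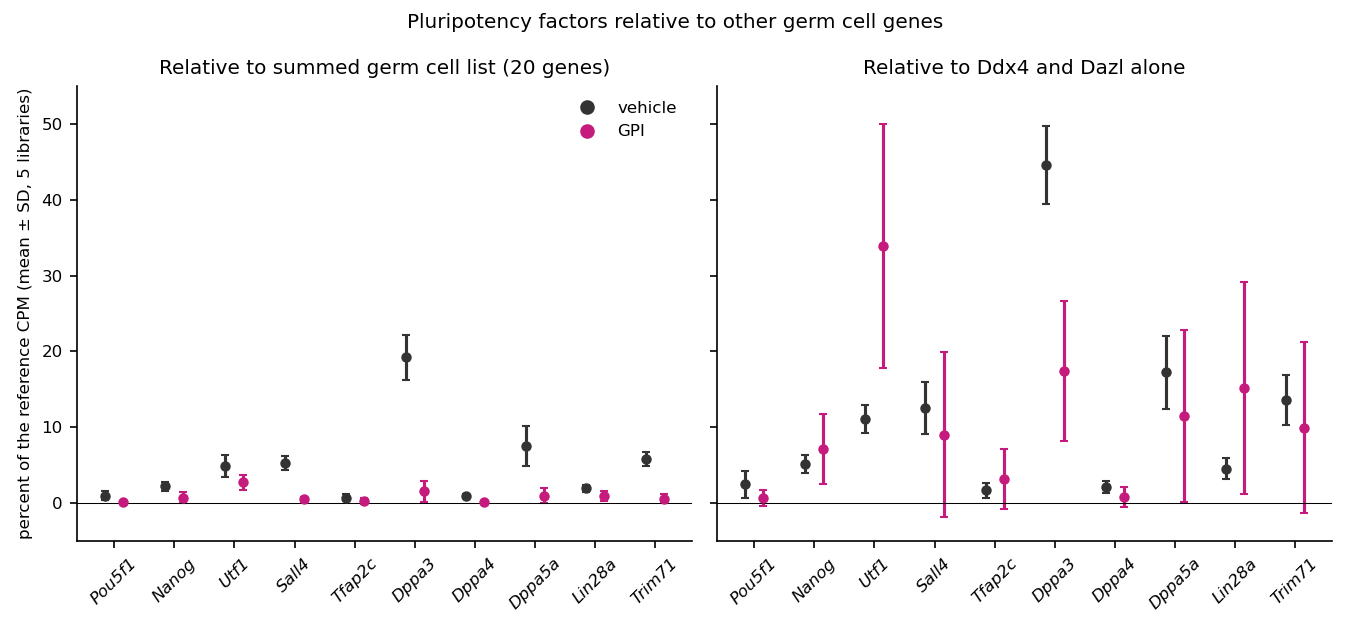
CPM of each factor as a percentage of a reference in the same library, mean and SD over 5 vehicle (grey) and 5 GPI (magenta) libraries. Against the summed 20-marker list (left) each GPI mean is below the vehicle mean, whereas against Ddx4 and Dazl alone (right) the GPI means of Nanog, Utf1, Tfap2c and Lin28a are above it.

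The wider pluripotency network was listed with 28 further genes, of which 14 were tested. Of these 6 were called lower, 0 higher and 8 were not called, with a median log2 fold change of -0.43. Over all tested genes, 11.9% were called lower and 11.1% higher, with a median of 0.019. L1td1, an RNA-binding protein gene of pluripotent cells, fell by 3.23 (SE 0.33), Klf2 by 2.03 (SE 0.42) and Tbx3 by 1.34 (SE 0.22). Lefty2, a Nodal antagonist, was also called lower, from 423 summed counts with vehicle to 69 with GPI. The SOX-family partner of OCT4, Sox2, was set aside by the filter, with 11, 15, 9, 22 and 8 vehicle counts and 3, 0, 0, 0 and 0 GPI counts. Esrrb was set aside as well, at 51 summed counts with vehicle and 17 with GPI. With no filter, 14 of 27 network genes were called lower, beside 9.28% of all genes, and with at least 10 counts required in every library 2 of 9 were. Without mouse 2, 1 was called higher.

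Among 24 genes of the LIN28 and let-7 circuit, including let-7 targets and processing enzymes, 24 were tested, 5 were called lower, 1 higher and 18 were not called (median log2 fold change -0.15), beside 11.9% lower and 11.1% higher over all tested genes. Lin28b, the paralog of Lin28a, had 111, 94, 81, 108 and 128 counts with vehicle and 83, 174, 148, 147 and 114 with GPI. Its log2 fold change was 0.29 (SE 0.18, adjusted p = 0.279 from the quasi-likelihood F test of edgeR, Benjamini-Hochberg method), and it was lower in 1 of 5 mice. The change of Lin28a minus that of Lin28b was -2.55 ± 0.88 on the log2 CPM scale (SD, n = 5), negative in 5 of 5 mice. This pair was chosen after the values were seen, and Lin28a reached the filter level in 0 GPI libraries. With 5 pairs an exact sign-flip test allows no p below 0.0625 and could not decide here. The value is given as a description only. Hmga2, a let-7 target, fell by 0.90 (SE 0.09), Ccnd1 by 1.20 (SE 0.20) and Igf2bp1 by 0.36 (SE 0.09). Arid3a (-0.49) was also called lower, and the 1 gene called higher was the exportin gene Xpo5 (0.30), both named after their values were seen. The Xpo5 call was lost with total-count scaling and without mouse 1, 3 or 4, and without mouse 4 the count called lower was 3.

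Of 17 listed relatives of the factors, 9 were tested, with 3 called lower, 1 higher and 5 not called (median log2 fold change -0.37), against the same 11.9% and 11.1% over all tested genes. Sall1 and Sall2, relatives of Sall4, were not called, at -0.83 (SE 0.35) and -0.37 (SE 0.13). The change of Sall4 minus theirs was -3.47 ± 1.33 and -3.93 ± 1.29 on the log2 CPM scale (SD, n = 5), negative in 5 of 5 mice each. These pairs were chosen after the values were seen, and Sall4 reached the filter level in 0 GPI libraries. An exact sign-flip test could not decide here, since 5 pairs allow no p below 0.0625. Both values are given as a description only. Among POU-domain genes, Pou2f1 fell by 0.28 and Pou2f2 by 1.34. Trim32 rose, with a log2 fold change of 0.67 (SE 0.10). Pou6f1, named after its values were seen, was the other gene called lower (-0.68). With no replicate block, 5 relatives were called lower, and with no low-count filter 6 of 16 were.

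Genes of germ line specification and migration were listed with 19 entries, of which 12 were tested, 7 called lower, 0 higher and 5 not called (median log2 fold change -0.50), beside 11.9% lower, 11.1% higher and a median of 0.019 over all tested genes. Prdm1, which encodes the specification factor BLIMP1, fell by 2.39 (SE 0.22), and Cxcr4, the receptor used in germ cell migration, by 2.67 (SE 0.15). Both are also transcribed in other cell types. Tex19.1, a germ cell gene, fell from 258 summed counts to 10 (log2 fold change -4.78, SE 0.49). Prdm14 had 24 vehicle and 12 GPI counts and was not tested.

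**Figure D5:**
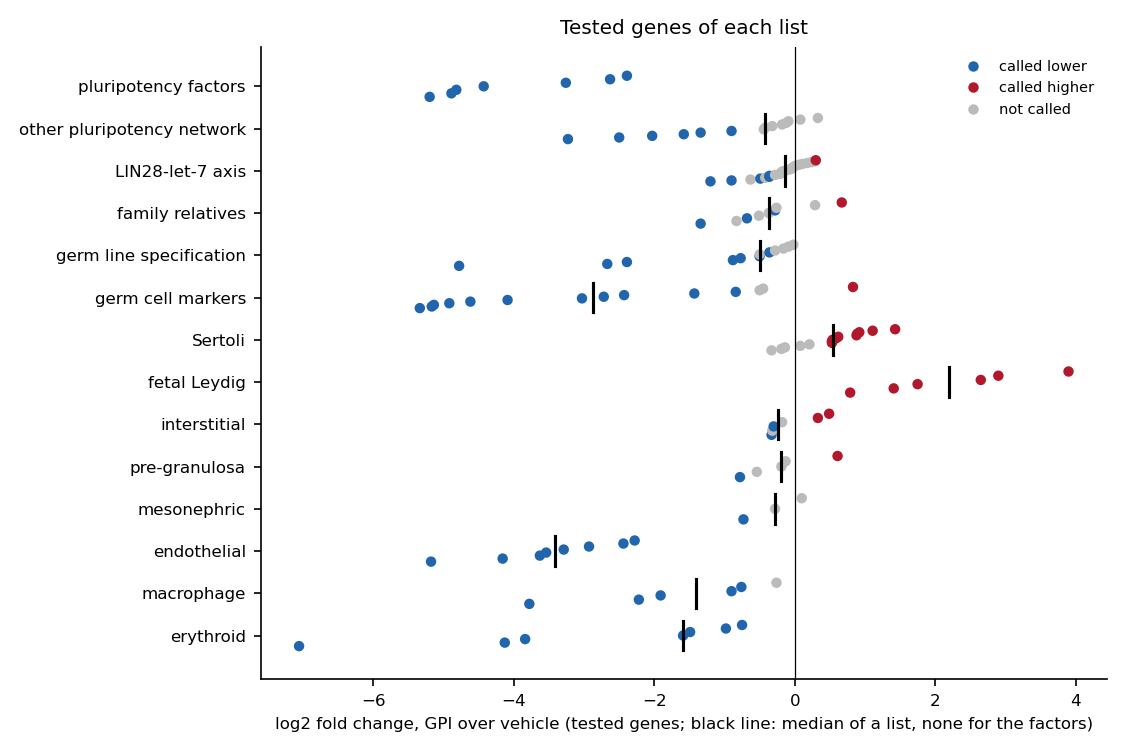
Log2 fold change of GPI over vehicle for each tested gene of 14 lists, blue for genes called lower, red for called higher and grey for not called, with a black line at each list's median (not drawn for the factors). Germ cell and endothelial lists lie mostly below 0, and Sertoli and fetal Leydig lists mostly above it.

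Markers of other cell types moved with the same comparison, and their counts stand beside the same 11.9% lower and 11.1% higher over all tested genes. Endothelial markers fell in 8 of 8 cases (median log2 fold change -3.41), and none of the 8 was at 0 in any library. Their summed level was 624.7, 643.9, 596.4, 688.2 and 611.1 CPM with vehicle and 69.5, 81.7, 56.5, 45.1 and 57.7 CPM with GPI in mice 1 to 5. Cdh5, which had the most counts of the list with vehicle, went from 229.5 ± 17.9 to 18.9 ± 5.14 CPM, and Kdr had the most with GPI. Erythroid markers were lower in 7 of 7 cases and macrophage markers in 5 of 6. Summed erythroid markers were 145.8 to 382.3 CPM with vehicle and 63.1 to 161.6 with GPI, with the most counts from Hbb-y. Summed macrophage markers were 37.8 to 61.9 CPM and 14.9 to 29.9 CPM, with Cd68 (712 and 458 summed counts) and Mrc1 (686 and 387) giving the most counts, and C1qa was at 0 in at least 1 GPI library. Sertoli markers were called higher in 10 of 15 cases (0 lower, 1 with total-count scaling) and fetal Leydig markers in 6 of 6. Summed Sertoli markers were 1096 to 1346 CPM with vehicle and 1139 to 1839 with GPI, with the most counts from Wt1, and summed Leydig markers were 134.5 to 489.8 and 893.8 to 1635 CPM, with the most counts from Hsd3b1 with vehicle and from Cyp11a1 with GPI. The part of these cell types in the levels of the 10 factors was not tested.

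Over the 10 libraries, the genes whose log2 CPM followed the mean of the 7 tested factors most closely were Ptpn12 (Pearson r = 0.991), Prex2 (0.989) and St8sia6 (0.988), then Cttnbp2nl, Tjp1, Vim, Tpm4, Raph1, Zswim6 and Tmsb4x. The libraries are paired and share the treatment difference, which raises such values. For deviations from the treatment means, r was 0.872 for Ptpn12, 0.839 for Prex2 and 0.768 for St8sia6. The genes were picked as the most alike in these same libraries, which raises these values too. Their own changes differed in size, at -0.70 for Ptpn12, -3.01 for Prex2 and -4.37 for St8sia6 on the log2 scale.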

How the data were processed

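RNA was measured in 5 vehicle and 5 GPI libraries. Per the labels and the study's methods, the authors aligned the pairs to mm10 (STAR 2.5) and deposited unstranded featureCounts (Subread 1.5.0-p1) raw counts per gene. Libraries were fitted in R 4.3.3 with edgeR 4.0.16 (TMM scaling, filterByExpr with a minimum count of 10 and minimum total of 15, quasi-likelihood test, mouse and treatment in the design, Benjamini-Hochberg adjustment over all tested genes, threshold 0.05). The script was tested on simulated data. Pairing came from the number in the library titles. That both testes of a pair came from a single embryo is stated by the study. Correlations of paired deviations were 0.155, -0.0398, 0.0296, 0.0817 and 0.0731. Libraries of a group differed by more than sampling noise (chi-square per degree of freedom 6.42 to 27.8). The named genes were the 10 factors, the first 3 genes and the 3 smallest p of each list, every tested gene of lists with under 6 tested, the 10 genes most alike, and near-identical copies. The factors and lists were chosen with earlier results of these data known. Log2 CPM used a prior count of 2. Copies were found with BLAST 2.17.0 (at least 90% identity over 50% of the transcript). Alternatives were DESeq2 1.42.0, limma-voom (limma 3.58.1), other scalings and filters, no replicate block, and each mouse left out. Pair differences between relatives, a robust spread, and list counts under limma-voom, other scalings and the stricter filter were added after seeing the data. Intervals cover counting error only. Some genes of the lists are counted but not reported here by name.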

Additional observations from a re-analysis of the deposited data

Results flagged for a closer look

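Of 20 groups of 5 libraries (10 factors, vehicle and GPI), 2 held a library far from the other 4 by Dixon's test with a critical value of 0.71. Chance gives about 1 in 20 groups. Nanog in the GPI testis of mouse 5 was at 0.973 CPM (11 counts), and the next GPI library was at 0.273 CPM. Tfap2c in the vehicle testis of mouse 4 was at 2.67 CPM (33 counts), and the next vehicle library was at 0.899 CPM. Without mouse 5 the Nanog log2 fold change was -4.16 in place of -3.26.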

How the results depend on the processing

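The log2 fold changes of single factors kept their direction and their call in 86 of 86 values, from the 12 of 13 alternatives that gave one. Of these, 1, a robust spread, was chosen after seeing the data. Over these values and the main one, Dppa3 ranged from -5.89 to -4.93, Nanog from -4.16 to -2.82 and Utf1 from -2.81 to -2.12. Paired by mouse, 3198 genes were called, and with no replicate block 3108, with the 7 tested factors called lower in both. DESeq2 called 3187 genes, limma-voom 3287, and fits without a mouse 2311 to 3082. Requiring at least 10 counts in every library left 0 of the 10 factors tested and 0 called, since each has a GPI library under 10 counts. Without mouse 1, 9 factors were tested and called lower, beside 3082 of 13962 tested genes called in either direction. Pou5f1 and Dppa4 entered that fit through their vehicle level, so the count of 9 is given as a description only. Among counts of listed genes called, 17 moved by over 1.5 times, 4 of them under another low-count filter and 13 under no replicate block, total-count scaling or a mouse left out. Relative to Ddx4 and Dazl alone in place of the 20-marker sum, the GPI to vehicle ratio of each factor moved. With 0 to 25 counts of a factor per GPI library, counting error limits the precision of each fold change.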

Other observations

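Markers of 3 further cell types were mixed in direction. Of 6 tested interstitial markers, Pdgfra (log2 fold change 0.33) and Maf (0.49) were called higher and Tcf21 (-0.30) was called lower. The Tcf21 call was lost without mouse 2, 3 or 4. Of 5 pre-granulosa markers, Wnt4 (-0.78) was called lower, Bmp2 (0.61) higher, and Foxl2, Fst and Rspo1 were not called. The Bmp2 call was lost without mouse 4 and with no replicate block. Of 3 tested mesonephric markers, Emx2 (-0.73) was called lower, and Pax8 and Gata3 were not called.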
